A study of Mus musculus with 12 samples.

Results

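Guanylate-binding proteins (GBPs) are interferon-induced GTPases, and the genes described here are Gbp2b and its relatives Gbp2, Gbp3, Gbp4, Gbp5 and Gbp7. Gbp2b, called Gbp1 in older mouse literature, was chosen by its measured BALB/c minus B6 difference on these arrays, and the other 5 were taken as its family. A gene was read from a probe set that the platform annotation assigns to that symbol alone. By that rule 5 of the 6 genes were measured, among 22180 genes with such a probe set. They were read from probe sets 17403255 (Gbp2b), 17403237 (Gbp3), 17450461 (Gbp4), 17403205 (Gbp5) and 17403224 (Gbp7). Gbp2 is represented only by probe set 17403268, which the annotation assigns to both Gbp2 and Gbp2b, and it is described separately as the shared probe set.

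The study profiled RNA of 5 groups of mouse cells on 12 Affymetrix whole-transcript arrays, 1 per sample, to compare iNKT cells of B6 and BALB/c mice. Invariant natural killer T (iNKT) cells recognise lipids on the CD1d molecule, and their iNKT17 subset makes interleukin 17. The groups were BALB/c iNKT17 cells (3 arrays), BALB/c ROR- cells (3), B6 iNKT17 cells (2), B6 gamma-delta 17 cells (2) and B6 ROR- cells (2). No genetic change, agent, age, sex or organ is given for any group, and the labels do not name the receptor of the ROR- cells or a gamma-delta group for BALB/c. The extraction protocol speaks of frozen tissue although the labels name cells, and nothing says whether replicates came from separate animals. P-values therefore reflect the variation among these particular arrays, which may be technical.

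Interferons bind receptors that act through JAK kinases and STAT factors, and these switch on GBP genes through interferon-stimulated response elements (ISRE) and gamma-activated sites (GAS). GBP proteins gather on the membranes of vacuoles that hold pathogens, and on bacteria in the cytosol, together with the immunity-related GTPases and the autophagy conjugation machinery. They are also known for promoting inflammasome activation in macrophages. In T cells interferon-gamma is both a product of type 1 subsets and an inducer of these genes.

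The promoters are shown first because interferon induction is the known common property of the family. RefSeq windows of the GRCm38.p6 build, from 250 bases before to 50 after a start site, were at hand for 5 of the 6 genes, Gbp4 being the exception. Both strands were searched for an ISRE-like motif (GAAA, any 2 bases, then GAAA) and a GAS-like motif (TTC, any 3 bases, then GAA). Capitals below mark the ISRE-like match, which in each case lies on the minus strand and is read here as its complement on the plus strand; in Gbp3 a pair of overlapping matches form 1 run.
Gbp2b (chr3:142594597-142594815, plus strand): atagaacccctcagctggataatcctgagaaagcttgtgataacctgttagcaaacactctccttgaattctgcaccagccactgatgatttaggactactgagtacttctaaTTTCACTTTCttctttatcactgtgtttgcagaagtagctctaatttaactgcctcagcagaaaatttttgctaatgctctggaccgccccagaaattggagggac
Gbp2 (chr3:142620589-142620628, plus strand): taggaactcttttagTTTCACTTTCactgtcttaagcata
Gbp3 (chr3:142559984-142560015, plus strand): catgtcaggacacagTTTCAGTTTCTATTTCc
Gbp5 (chr3:142496754-142496793, plus strand): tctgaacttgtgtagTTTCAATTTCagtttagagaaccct
Gbp7 (chr3:142530268-142530307, plus strand): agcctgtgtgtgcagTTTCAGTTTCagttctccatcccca
The ISRE-like motif was found in the windows of all 5 genes and in 3.44% of 32851 RefSeq windows of the same length. A second window of Gbp3 held neither motif. The match began 137 bases before the start site in Gbp2b, 165 in Gbp5, 59 in Gbp2, 53 in Gbp7 and 45 in Gbp3. The GAS-like motif was found in Gbp5 and Gbp7, with 2 matches each, and in 8.3% of all windows; both motifs together stood in 0.454% of them. No ISRE-like match overlapped a GAS-like match. These are letters in a reference sequence of the B6 background, and the BALB/c sequence was not used here.

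Values are the deposited ones on a log2 scale, so 1 unit is a doubling of signal. T cell markers (4 of 6 measured) averaged 10.46 to 10.97 on every array. No pair of arrays was identical over the genes tested, with correlations within groups of 0.977 to 0.990. The iNKT17 markers (5 of 6 measured) averaged 7.94 to 8.25 in BALB/c iNKT17 cells and 5.28 to 6.45 in BALB/c ROR- cells. They averaged 7.63 to 7.93 in B6 iNKT17 cells, 8.25 to 8.51 in B6 gamma-delta 17 cells and 5.30 to 5.61 in B6 ROR- cells. Markers of conventional NK and CD8 cells (7 of 7 measured) averaged 4.21 to 4.28 in BALB/c iNKT17 cells and 5.04 to 5.63 in BALB/c ROR- cells. They averaged 4.39 to 4.56 in B6 iNKT17 cells, 4.3 to 5.84 in B6 gamma-delta 17 cells and 6.26 to 6.51 in B6 ROR- cells, so the list mean was higher in ROR- cells of both strains. Its members did not all move that way: Cd8b1 averaged 6.0 in iNKT17 and 5.29 in ROR- cells of BALB/c, and 5.98 in iNKT17 and 5.01 in ROR- cells of B6. Cd8a averaged 5.09 in iNKT17 and 5.15 in ROR- cells of BALB/c, and 6.73 in iNKT17 and 4.76 in ROR- cells of B6. Replicate 1 of B6 gamma-delta 17 carried the neutrophil gene S100a8 at 9.30 against 2.29 on replicate 2. Replicate 2 of BALB/c ROR- carried the type 17 gene Il23r at 7.0 against 3.05 and 3.37 on replicates 1 and 3. The part of these arrays and marker lists in the results below was not tested beyond the values given without them.

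Gbp2b was bright on every BALB/c array and near the dim level on every B6 array, whatever the cell type. Its level was 7.69, 7.35 and 7.53 in BALB/c iNKT17 cells, against 3.50 and 3.22 in B6 iNKT17 cells. It was 8.84, 7.71 and 7.75 in BALB/c ROR- cells, against 3.38 and 3.50 in B6 ROR- cells. The lowest BALB/c array stood 3.85 units above the highest B6 array. Both B6 gamma-delta 17 arrays held the same value, 3.2974. The dim level, the 30th percentile of all named probe sets and no measured background, lay at 3.45, and 4 of 6 B6 arrays fell below it.

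**Figure D1:**
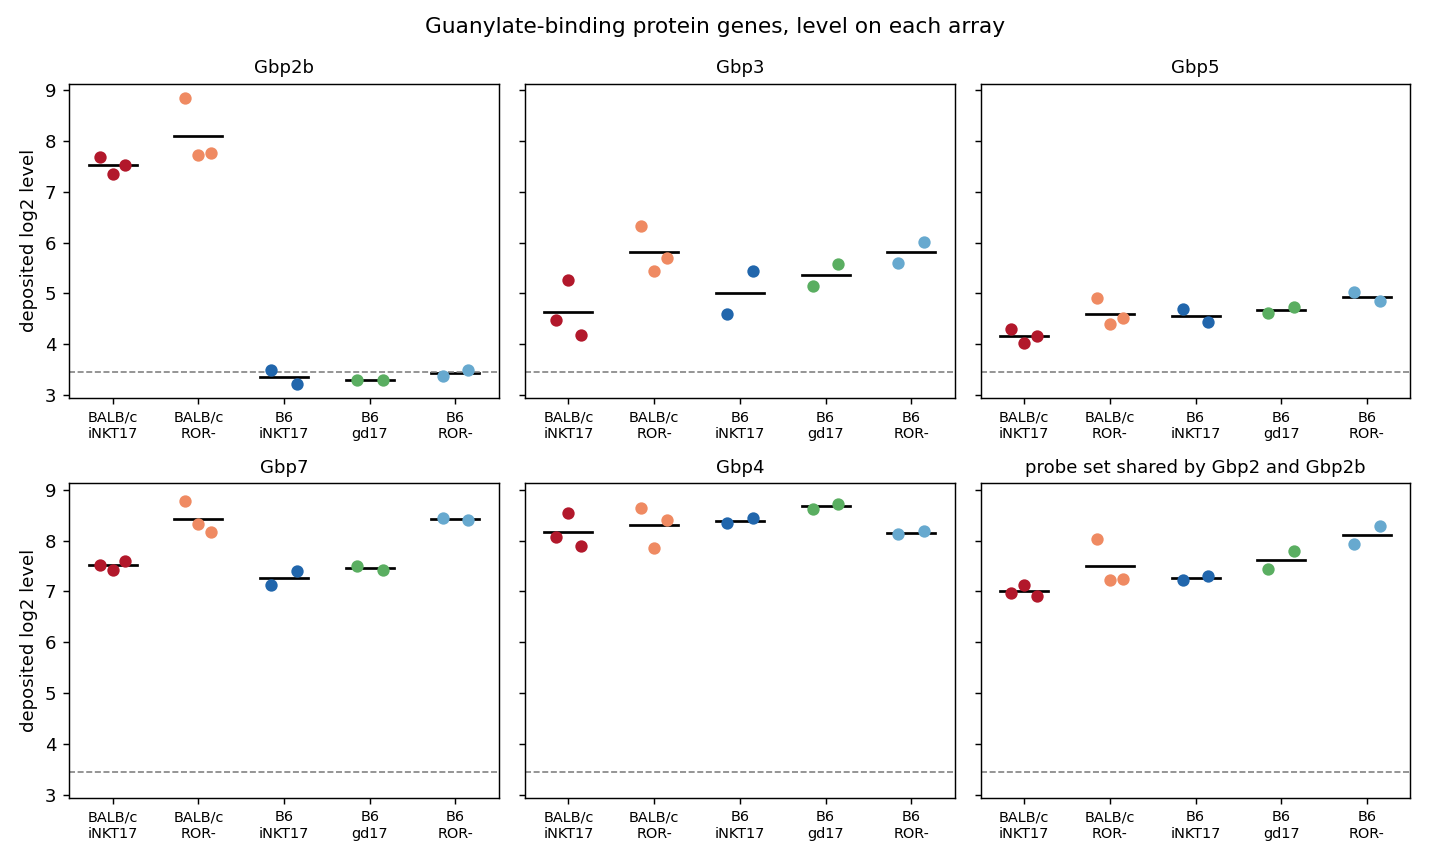
Deposited log2 level (y axis) of 5 GBP genes and of the probe set shared by Gbp2 and Gbp2b on each of 12 arrays, by group (x axis, gd17 for gamma-delta 17); bars are group means and the dashed line is the dim level of 3.45. Gbp2b separates the strains (7.35 to 8.84 in BALB/c, 3.22 to 3.50 in B6), while Gbp7 separates both kinds of type 17 cell from ROR- cells.

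The BALB/c minus B6 difference of Gbp2b was 4.16 in iNKT17 cells, with group means of 7.52 ± 0.17 in BALB/c (SD, n = 3) and 3.36 ± 0.19 in B6 (SD, n = 2). In ROR- cells it was 4.66, with 8.10 ± 0.64 in BALB/c (SD, n = 3) and 3.44 ± 0.08 in B6 (SD, n = 2). These are 17.9-fold and 25.3-fold on the deposited scale, and since every B6 mean lay below the dim level the size of the fold is uncertain. No gene of the 16667 tested had a larger BALB/c minus B6 value in either cell type. Because Gbp2b was chosen for this difference, the values are a description and carry no test. Across groups the order was BALB/c ROR-, BALB/c iNKT17, B6 ROR-, B6 iNKT17 and B6 gamma-delta 17, and the 3 B6 groups lay within 0.14 units of each other.

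None of the 4 relatives with a probe set of their own passed the strain test. The counts were 0 of 4 in iNKT17 cells and 0 of 4 in ROR- cells (limma, adjusted p threshold 0.05). Of all genes tested, 1.48% were called in iNKT17 cells (0.672% higher in BALB/c, 0.81% lower), and 1.22% in ROR- cells (0.378% higher, 0.84% lower). At an unadjusted p under 0.05 the counts were 1 of 4 in iNKT17 cells, Gbp5, and 0 of 4 in ROR- cells, while 12.6% and 11.9% of all genes tested were under it. Gbp5, known for promoting NLRP3 inflammasome assembly, read 4.31, 4.03 and 4.16 in BALB/c iNKT17 cells and 4.69 and 4.43 in B6 iNKT17 cells. Its arrays did not overlap, with BALB/c lower, and the difference of -0.39 ± 0.17 (SE) had a limma adjusted p of 0.341. For Gbp7, BALB/c minus B6 was 0.26 in iNKT17 cells (95% interval -0.11 to 0.63) and 0.00 in ROR- cells (-0.37 to 0.37). For Gbp3 it was -0.38 (-1.15 to 0.40) and 0.01 (-0.77 to 0.78), and for Gbp4 -0.22 (-0.71 to 0.26) and 0.15 (-0.34 to 0.63), in the same order of cell types. No interval of these relatives reached the Gbp2b values. Gbp2b was chosen for its large difference, so that was largely fixed in advance and is no test.

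The shared Gbp2 and Gbp2b probe set did not follow Gbp2b. It read 6.97, 7.12 and 6.92 in BALB/c iNKT17 cells, against 7.22 and 7.30 in B6 iNKT17 cells. It read 8.04, 7.22 and 7.25 in BALB/c ROR- cells, against 7.93 and 8.30 in B6 ROR- cells. BALB/c was thus the lower strain in iNKT17 cells on every array, the opposite side from Gbp2b. BALB/c minus B6 was -0.26 (95% interval -0.80 to 0.28) in iNKT17 cells and -0.61 (-1.15 to -0.07) in ROR- cells, with limma adjusted p of 0.790 and 0.412 over all probe sets. How much of this signal comes from Gbp2 and how much from Gbp2b cannot be told apart.

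The gene order places Gbp2b among genes with smaller strain values. Gbp2b was chosen for its own value, so this is a description and no test. In the RefSeq order of chromosome 3 the genes run Gbp5, Gbp7, Gbp3, Gbp2b and Gbp2, and the nearest genes outside with tests are Pdlim5 on one side and Kyat3 on the other. These flanking genes were chosen after their values were seen. In iNKT17 cells BALB/c minus B6 was 0.03 for Pdlim5 (95% interval -0.25 to 0.30), 0.47 for Kyat3 (0.06 to 0.88) and 0.08 for Gtf2b (-0.20 to 0.36). In ROR- cells the same genes gave -0.01 (-0.28 to 0.26), 0.31 (-0.10 to 0.72) and 0.06 (-0.23 to 0.34). Farther out, Unc5c gave 0.07 in iNKT17 cells and 0.04 in ROR- cells, and Pkn2 gave 0.17 (-0.14 to 0.48) and 0.41 (0.09 to 0.72). None of these 5 genes passed the test in either cell type. The shares of all genes tested that were called were 1.48% in iNKT17 cells and 1.22% in ROR- cells. The lack of calls therefore does not set these genes apart. Gbp4 lies in the chromosome 5 cluster with Gbp8, Gbp9, Gbp10, Gbp6 and Gbp11. Next to that cluster lies Abcg3, a transporter-family gene. It was lower in BALB/c ROR- cells than in B6 ROR- cells by 1.17 units (log2 difference -1.17, limma adjusted p = 0.00585). Gbp4, Gbp8, Gbp9, Gbp10 and Gbp11 did not pass in either cell type, and Gbp6 was dim. With the same low shares over all genes, that does not set them apart either.

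**Figure D2:**
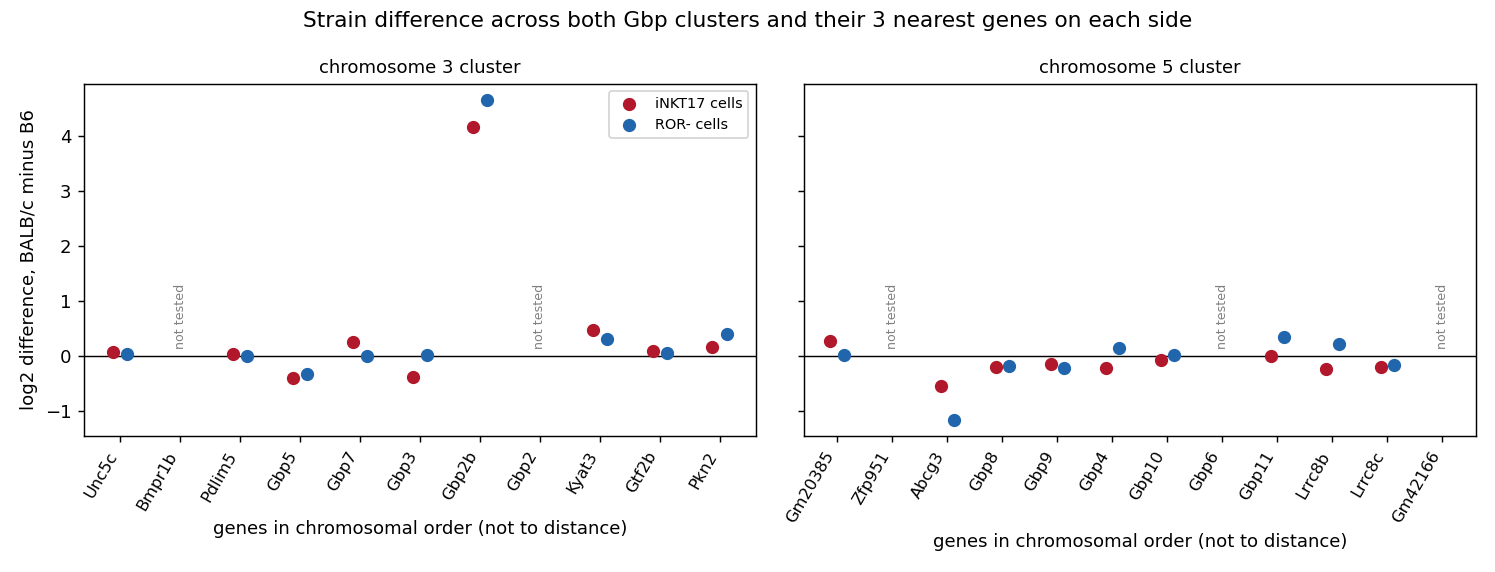
BALB/c minus B6 log2 difference (y axis) for genes of both Gbp clusters and the 3 nearest genes on each side, in chromosomal order and not to distance, with red points for iNKT17 cells and blue points for ROR- cells; genes without a tested probe set of their own are marked. Gbp2b, chosen for its strain difference, lies at 4.16 and 4.66, and Gbp3, Gbp5 and Gbp7 lie between -0.39 and 0.26.

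The cell types split the family by another line: in iNKT17 cells, set against ROR- cells, Gbp7, Gbp3 and Gbp5 were lower and Gbp4 was not. As the mean of both strains, 3 of 5 measured genes fell and 0 rose, where 5.81% of genes tested were called lower, 6.49% higher and 12.3% in either direction. Within BALB/c 2 of 5 fell, where 2.91% of genes tested were lower, 4.06% higher and 6.97% either. Within B6 1 of 5 fell, where 3.16% were lower, 2.83% higher and 5.99% either. Gbp2b is among those 5 although its B6 means lay below the dim level, where a fall could hardly be seen. The median over the 5 genes was -0.41 for the mean of both strains and -0.00 over all genes tested. In bulk RNA, fewer cells of a kind that express a gene and less of its RNA per cell cannot be told apart.

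Gbp7, which in mouse is linked to oxidase assembly and to vacuole attack in macrophages, had the steadiest fall. It read 7.51, 7.43 and 7.61 in BALB/c iNKT17 cells, against 8.78, 8.33 and 8.16 in BALB/c ROR- cells. In B6 it read 7.12 and 7.39 in iNKT17 cells, against 8.45 and 8.40 in ROR- cells. No iNKT17 array reached any ROR- array in either strain. The log2 difference was -0.91 ± 0.15 (SE) in BALB/c and -1.17 ± 0.19 in B6, with limma adjusted p of 0.00321 and 0.00263. The mean of both strains was -1.04 ± 0.12 (adjusted p = 0.00012), which is 2.05-fold lower. The call held in each of the 22 alternatives tried in all 3 forms of the comparison.

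Gbp3 read 4.47, 5.26 and 4.18 in BALB/c iNKT17 cells, against 6.33, 5.43 and 5.70 in BALB/c ROR- cells. In B6 it read 4.59 and 5.44 in iNKT17 cells, against 5.61 and 6.02 in ROR- cells. The groups did not overlap in either strain, though the spread within BALB/c iNKT17 cells was wide, with 5.26 on replicate 2. The fall was -0.99 ± 0.25 (SE) for the mean of both strains (limma adjusted p = 0.0225) and -1.18 ± 0.32 in BALB/c (adjusted p = 0.046). In B6 the difference of -0.80 ± 0.39 did not pass (adjusted p = 0.351). The mean call was lost in 5 of 22 alternatives, namely over all probe sets (adjusted p = 0.0588) and without replicate 1 or 3 of BALB/c iNKT17, replicate 1 of B6 iNKT17 or replicate 2 of B6 ROR- (differences of -0.95 to -0.78, adjusted p just above 0.05 and up to 0.105). The BALB/c call was lost in 13 of 22. In 8 of these 1 array was left out: replicate 1 or 3 of BALB/c iNKT17, replicate 1 or 3 of BALB/c ROR-, and either array of B6 gamma-delta 17 or B6 ROR- (-1.24 to -0.93, adjusted p of 0.0565 to 0.182).

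Gbp5 read 4.31, 4.03 and 4.16 in BALB/c iNKT17 cells, against 4.91, 4.39 and 4.52 in BALB/c ROR- cells. In B6 it read 4.69 and 4.43 in iNKT17 cells, against 5.02 and 4.85 in ROR- cells. Again no iNKT17 array reached a ROR- array of its strain. The fall of -0.41 ± 0.12 (SE) passed for the mean of both strains (limma adjusted p = 0.0426), while -0.44 in BALB/c and -0.37 in B6 did not (adjusted p = 0.119 and 0.351). The mean call was lost in 13 of 22 alternatives, where adjusted p reached 0.182. Among them were 9 of the 12 fits without 1 array: each of the B6 arrays, replicate 1 of BALB/c ROR-, and replicates 2 and 3 of BALB/c iNKT17, with differences of -0.47 to -0.33 and adjusted p of 0.0533 to 0.182.

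Gbp4 passed the test in no comparison. It read 8.07, 8.54 and 7.89 in BALB/c iNKT17 cells, against 8.64, 7.86 and 8.41 in BALB/c ROR- cells. In B6 it read 8.35 and 8.44 in iNKT17 cells, against 8.13 and 8.18 in ROR- cells. The BALB/c arrays overlap and the B6 arrays do not, with iNKT17 cells higher. The mean of both strains was 0.05 (95% interval -0.29 to 0.40), an interval that leaves out the falls of Gbp7, Gbp3 and Gbp5 as estimated.

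Gbp2b itself was lower on every BALB/c iNKT17 array than on any BALB/c ROR- array, with values given above. The difference of -0.58 ± 0.25 (SE) did not pass the test (limma adjusted p = 0.243, 95% interval -1.12 to -0.04). Without replicate 1 of BALB/c ROR-, which read 8.84 against 7.71 and 7.75 on the others, it was -0.21. In B6, at levels around the dim level, the difference was -0.08 (-0.75 to 0.59). The shared probe set was lower in iNKT17 cells by 0.68 units as the mean of both strains (log2 difference -0.68 ± 0.17, limma adjusted p = 0.046 over all probe sets). It did not pass within BALB/c (-0.50, adjusted p = 0.340) or within B6 (-0.85, adjusted p = 0.176).

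The difference between strains of the iNKT17 minus ROR- difference was tested as an interaction, in which 0 of 5 genes passed and 0.084% of genes tested were called (0.06% higher, 0.024% lower). At an unadjusted p under 0.05 the count was also 0 of 5, where 4.01% of genes tested were (limma). Estimates were -0.50 for Gbp2b (95% interval -1.36 to 0.36), -0.38 for Gbp3 (-1.48 to 0.71), -0.37 for Gbp4 (-1.06 to 0.32), -0.07 for Gbp5 (-0.58 to 0.45) and 0.26 for Gbp7 (-0.27 to 0.79). Both B6 means of Gbp2b lay below the dim level, where a B6 difference could not be seen, so its value says little about the strains.

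Gamma-delta 17 cells, T cells with another receptor that also make interleukin 17, were set against both B6 groups. Gbp7 read 7.50 and 7.42 in gamma-delta 17 cells, against 8.45 and 8.40 in ROR- cells. It was the 1 of 5 genes that fell, where 3.41% of genes tested were called lower, 2.61% higher and 6.02% either, with a log2 difference of -0.96 ± 0.19 (SE, limma adjusted p = 0.00855). That call was lost without replicate 2 of gamma-delta 17 (-0.93, adjusted p = 0.0629) and without either ROR- array (-0.94 and -0.99, adjusted p = 0.0685 and 0.0533). It held without replicate 1 of gamma-delta 17, the array with high S100a8. Gbp4 read 8.62 and 8.73 in gamma-delta 17 cells, the highest of any group mean, against 8.13 and 8.18 in ROR- cells, and its difference of 0.52 ± 0.24 did not pass (adjusted p = 0.294). The differences of Gbp3 (-0.45), Gbp5 (-0.26) and Gbp2b (-0.14) did not pass either. For Gbp2b both means lay below the dim level.

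Between B6 iNKT17 and B6 gamma-delta 17 cells 0 of 5 genes passed, where 0.168% of genes tested did (0.06% higher, 0.108% lower), and 0 of 5 had an unadjusted p under 0.05, where 8.5% of genes tested did (limma). The differences were -0.20 for Gbp7 (95% interval -0.61 to 0.21), -0.35 for Gbp3 (-1.20 to 0.50), -0.11 for Gbp5 (-0.51 to 0.29), -0.28 for Gbp4 (-0.82 to 0.25) and 0.06 for Gbp2b (-0.60 to 0.73). Both means of Gbp2b lay below the dim level, where a difference could hardly be seen. The comparisons within B6 share arrays, so their values for 1 gene are not independent of each other.

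**Figure D3:**
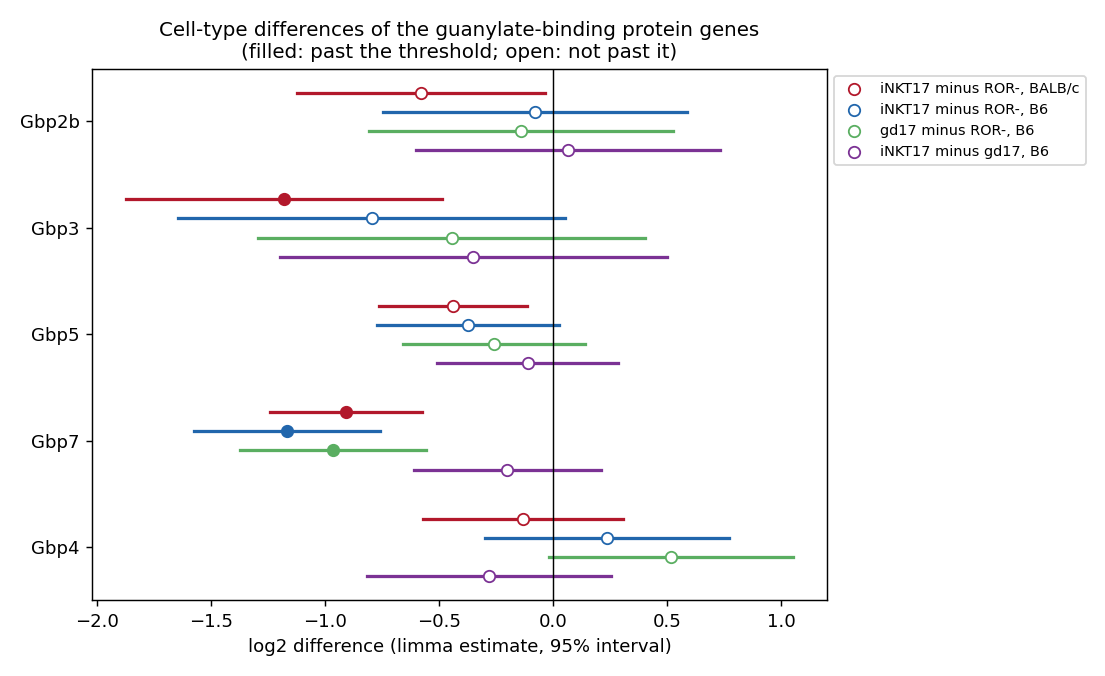
Log2 differences between cell types (x axis, limma estimates with 95% intervals) for 5 GBP genes (y axis), coloured by comparison, with filled points past the adjusted p threshold of 0.05 and open points not past it. Gbp7 is filled at -0.91 and -1.17 for iNKT17 minus ROR- cells and at -0.96 for gamma-delta 17 minus ROR- cells, while every Gbp4 point is open.

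One array carries part of the spread. Replicate 1 of BALB/c ROR- was the highest of its group for all 5 genes and the highest of all 12 arrays for Gbp2b, Gbp3 and Gbp7. Over all genes tested, 30.4% were highest on that array of the group. It exceeded the mean of replicates 2 and 3 by 1.11 units for Gbp2b, 0.77 for Gbp3, 0.53 for Gbp7, 0.50 for Gbp4 and 0.45 for Gbp5, while the median over all genes tested was -0.02. Of 9 other interferon-inducible GTPases 6 were also highest there, with Gbp11 raised by 1.21, and so was Irf1, a factor that binds interferon response elements, by 0.83. Ifng itself was not: it read 8.19 on that array against 8.82 and 5.54 on replicates 2 and 3. Without this array 2 of 5 genes fell as the mean of both strains (Gbp3 and Gbp7), 1 in BALB/c (Gbp7) and 1 in B6 (Gbp7). In that fit 5.56%, 2.78% and 3.19% of genes tested were called lower, in the same order.

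**Figure D4:**
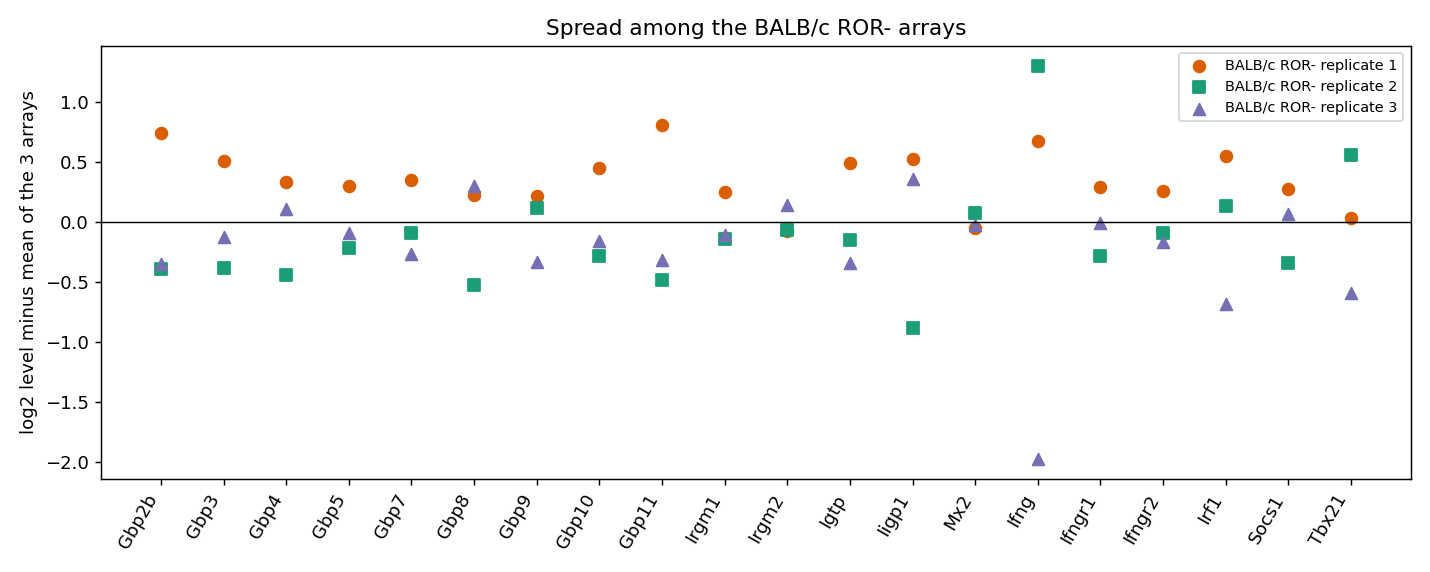
Log2 level minus the mean of the 3 BALB/c ROR- arrays (y axis) for the GBP genes, other interferon-inducible GTPases and interferon pathway genes (x axis), by replicate. Replicate 1 lies above replicates 2 and 3 for Gbp2b, Gbp3, Gbp4, Gbp5 and Gbp7, and below replicate 2 for Ifng.

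Among the other interferon-inducible GTPases only Irgm2 passed the iNKT17 minus ROR- test, and it rose. Of 15 listed, 9 were tested; Tgtp1, Tgtp2, Ifi47 and Gvin1 were not read from a probe set of their own, and Gbp6 and Mx1 were dim. As the mean of both strains 1 of 9 rose in iNKT17 cells and 0 fell, with a median of 0.11 against -0.00 over all genes tested. Of those genes 6.49% were called higher, 5.81% lower and 12.3% in either direction, so the count does not set the GTPases apart. Iigp1, an immunity-related GTPase that attacks vacuoles, had a difference of -1.12 ± 0.48 (SE), as large as that of Gbp7, but did not pass (limma adjusted p = 0.175). Gbp11 (-0.60), Gbp9 (-0.32) and Irgm1 (-0.26) did not pass either. The riser was Irgm2, a regulatory immunity-related GTPase, which read 8.21, 7.96 and 8.42 in BALB/c iNKT17 cells against 7.61, 7.62 and 7.83 in BALB/c ROR- cells. In B6 Irgm2 read 8.67 and 8.41 in iNKT17 cells and 8.70 and 8.93 in gamma-delta 17 cells, against 7.88 and 7.51 in ROR- cells. Its arrays did not overlap in any of these pairs, in the direction opposite to Gbp7. The iNKT17 minus ROR- difference was 0.68 ± 0.12 (SE) for the mean of both strains and 0.85 ± 0.19 in B6, with limma adjusted p of 0.00252 and 0.0182. In BALB/c it was 0.51 ± 0.15 and did not pass (adjusted p = 0.0706). In gamma-delta 17 minus ROR- cells it was 1.12 ± 0.19 (adjusted p = 0.00322).

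Gbp9, from the chromosome 5 cluster, fell in gamma-delta 17 cells. It read 7.75 and 8.03 there, against 8.89 and 8.63 in B6 ROR- cells (log2 difference -0.87 ± 0.23, limma adjusted p = 0.046). Without replicate 1 of gamma-delta 17, or without replicate 2 of BALB/c ROR-, no GTPase of this list was called lower. Gbp8, Gbp10, Gbp11, Igtp, Irgm1, Iigp1 and Mx2 passed in none of the 3 iNKT17 minus ROR- comparisons. By strain 0 of 9 passed in either cell type, and at an unadjusted p under 0.05 there was 1 in each, Igtp in iNKT17 cells (-0.50) and Mx2 in ROR- cells (0.33), near the 12.6% and 11.9% of all genes tested. The B6 ROR- mean of Mx2 lay below the dim level.

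Genes upstream of the GBPs fell in part. Of 20 tested interferon ligand, receptor and signalling genes, 7 fell and 0 rose in iNKT17 cells as the mean of both strains, with a median of -0.28. Of all genes tested 5.81% were called lower and 6.49% higher. Ifng, the interferon-gamma gene, read 3.29, 4.18 and 3.52 in BALB/c iNKT17 cells, against 8.19, 8.82 and 5.54 in BALB/c ROR- cells. In B6 it read 3.89 and 4.06 in iNKT17 cells and 4.56 and 3.59 in gamma-delta 17 cells, against 6.57 and 8.66 in ROR- cells. Every type 17 array was thus below every ROR- array. The fall was -3.75 ± 0.58 (SE) for the mean of both strains (limma adjusted p = 0.000982), and -3.54 ± 0.90 for gamma-delta 17 minus ROR- cells (adjusted p = 0.0398). Socs3, a cytokine signalling inhibitor, and the receptor genes Ifnar1 and Ifngr1 fell by 0.91, 0.85 and 0.55 on the log2 scale.

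Irf1 was not called: its difference was -0.62 ± 0.25 (SE, limma adjusted p = 0.160). Socs1, an inhibitor of JAK kinases, was at 0.12 and Ifngr2 at 0.40, neither past the threshold (adjusted p = 0.833 and 0.15). Tbx21, the T-bet gene that drives type 1 programs, fell by 2.78 on the log2 scale, and with it 9 of 10 genes of the type 1 list, while 7 of 9 type 17 genes rose. The shares over all genes tested were 5.81% lower and 6.49% higher.

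By strain Ifngr1, the ligand-binding chain of the interferon-gamma receptor, was on the opposite side from Gbp2b. Ifngr1 read 9.03, 9.34 and 9.38 in BALB/c iNKT17 cells, against 10.27 and 10.01 in B6 iNKT17 cells. In ROR- cells it read 10.09, 9.51 and 9.79 in BALB/c, against 10.79 and 10.58 in B6. It was lower in BALB/c by 0.89 units in both cell types (log2 difference -0.89 ± 0.18 each, limma adjusted p = 0.036 and 0.0404), with no overlap of arrays. Nlrc5, the activator of major histocompatibility class I genes, was lower in BALB/c as well, by -1.28 in iNKT17 cells and -0.94 in ROR- cells (adjusted p = 0.00528 and 0.0345). These were the 2 of 20 genes called in each cell type, where 1.48% of all genes were called in iNKT17 cells and 1.22% in ROR- cells. Ifng differed by -0.32 and -0.10 with neither value past the threshold. Ifngr2, the other receptor chain, differed by 0.11 in iNKT17 cells and -0.14 in ROR- cells and did not pass.

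Some classical interferon targets were lower in iNKT17 cells, and most did not pass the test. Of 24 tested (Rsad2 was dim), 9 fell and 0 rose in iNKT17 cells as the mean of both strains, with a median of -0.25. Over all genes tested 5.81% were called lower and 6.49% higher. Oas3, a sensor of double-stranded RNA, fell by 1.18 on the log2 scale, and Ifit2 and Ifit1, which bind foreign RNA, fell by 1.09 and 0.75. Cd274, the gene of the checkpoint ligand PD-L1, fell by 0.74. Without replicate 1 of BALB/c ROR- the count was 8 for the mean of both strains, and within BALB/c it was 2 instead of 5. In that fit 5.56% and 2.78% of all genes tested were called lower, against 2.91% within BALB/c in the main fit. In gamma-delta 17 cells 5 of 24 fell against ROR- cells, where 3.41% of all genes tested were called lower. Ifit2 led them (-1.78, limma adjusted p = 0.000552), and the count was smaller without replicate 1 of gamma-delta 17. The mean of the NK and CD8 marker list was also lower in iNKT17 cells, with Fcer1g at 4.37 in iNKT17 and 7.35 in ROR- cells of BALB/c and Cd8b1 on the opposite side, as given above. The part of these markers in the falls was not tested.

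Between strains 1 of 24 targets passed in each cell type, and it was lower in BALB/c. Of all genes tested 0.81% were called lower in BALB/c in iNKT17 cells and 0.84% in ROR- cells. Oasl2, an oligoadenylate synthetase-like gene, read 3.39, 3.17 and 2.80 in BALB/c iNKT17 cells, against 5.09 and 5.75 in B6 iNKT17 cells. The difference was -2.30 ± 0.25 (SE) in iNKT17 cells and -1.56 ± 0.25 in ROR- cells, with limma adjusted p of 0.000566 and 0.00953. Its BALB/c means lay below the dim level, so the size is uncertain. Oasl2 was thus on the opposite side from Gbp2b, and no target was called higher in BALB/c.

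**Figure D5:**
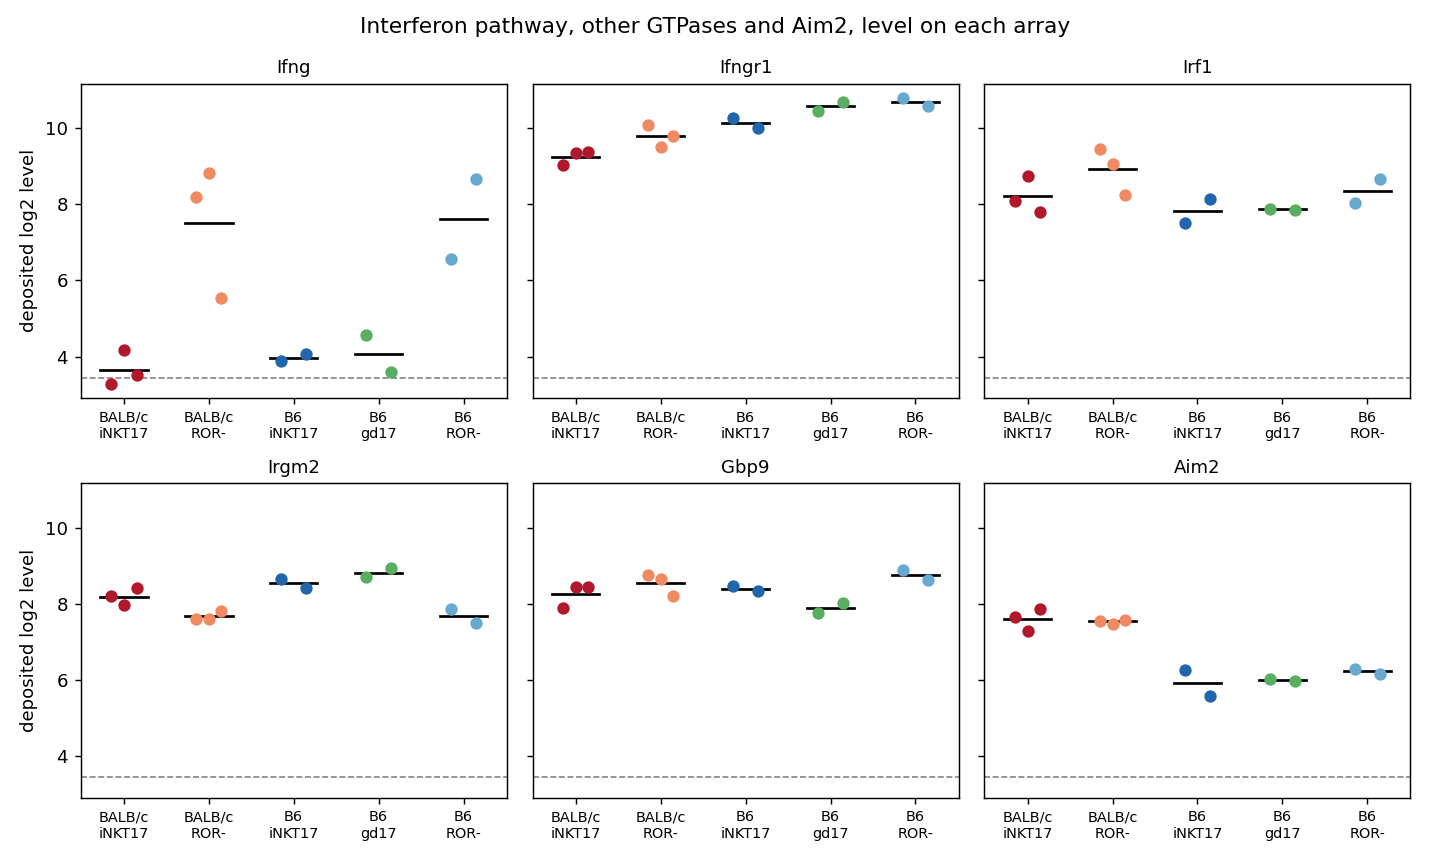
Deposited log2 level (y axis) of Ifng, Ifngr1, Irf1, Irgm2, Gbp9 and Aim2 on each of 12 arrays, by group (x axis, gd17 for gamma-delta 17); bars are group means and the dashed line is the dim level of 3.45. Ifng is at 3.29 to 4.56 in type 17 cells and 5.54 to 8.82 in ROR- cells, Irgm2 runs the other way, and Aim2 separates the strains.

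Of 19 tested genes whose products act with GBPs (Casp4 was dim), 2 rose and 0 fell in iNKT17 cells as the mean of both strains. Of all genes tested 6.49% were called higher, 5.81% lower and 12.3% in either direction, so the count does not set this list apart. Atg7, the enzyme that starts autophagy conjugation, rose by 1.48 ± 0.14 (SE, limma adjusted p = 2.87e-05), and by 1.5 in gamma-delta 17 against ROR- cells. Fnta, a subunit of the prenyl transferases that modify some GBPs, rose by 0.50 (adjusted p = 0.0432). Casp1, the inflammasome protease, read 3.09 and 3.15 in B6 iNKT17 cells, against 4.58 and 5.32 in gamma-delta 17 cells. That difference of -1.83 passed (adjusted p = 0.00685), with iNKT17 cells below the dim level. The value of 4.58 came from replicate 1 of gamma-delta 17, the array with high S100a8, and the part of that array in the difference was not tested.

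Aim2, a sensor of cytosolic DNA whose activation by some bacteria in mouse macrophages depends on GBPs, was the partner gene called between strains. It was 1 of 19 tested in each cell type, where 1.48% of all genes were called in iNKT17 cells and 1.22% in ROR- cells. It read 7.66, 7.29 and 7.86 in BALB/c iNKT17 cells, against 6.27 and 5.58 in B6 iNKT17 cells. It read 7.56, 7.48 and 7.59 in BALB/c ROR- cells, against 6.30 and 6.16 in B6 ROR- cells. No BALB/c array overlapped a B6 array. The differences were 1.67 ± 0.20 (SE) and 1.31 ± 0.20, with limma adjusted p of 0.00133 and 0.00768.

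Over the 12 arrays the genes most like Gbp2b by Pearson r were Dnah8 (0.986), Glo1 (0.985), Pianp (0.961), Aim2 (0.960) and Ctse (0.959). The r is a description: the points share strain, and each of the 5 genes had every BALB/c array above every B6 array. Dnah8 and Glo1 are neighbours on chromosome 17 in the RefSeq order, and none of the 5 lies on chromosome 3. Ctse, which encodes the protease cathepsin E, averaged 9.68 in BALB/c iNKT17 cells and 5.59 in B6 iNKT17 cells. Glo1, a glyoxalase, averaged 9.0 in BALB/c iNKT17 cells and 7.95 in B6 iNKT17 cells. The genes most like the mean of Gbp3, Gbp4, Gbp5 and Gbp7 were Zbp1 (0.930), Fsd1l (0.918), Bcl2 (0.898), Nrp1 (0.886) and Rptor (0.885). These r values are a description as well. Fsd1l, Bcl2, Nrp1 and Rptor were each highest of all 12 arrays on replicate 1 of BALB/c ROR-, the array that carries part of the spread. The means of Fsd1l and Nrp1 lay below the dim level in every type 17 group. Zbp1, an interferon-induced nucleic acid sensor, averaged 8.10 in iNKT17 cells and 8.79 in ROR- cells of BALB/c, and 8.42 in iNKT17 cells and 9.10 in ROR- cells of B6.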

How the data were processed

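RNA was purified by RNeasy and labelled as biotinylated cRNA, per the labels' protocols. The authors deposited 1 table of processed values for 41345 probe sets on 12 arrays, used here as log2 values. Per the submitters' processing notes they used oligo; its version, background correction and normalization are not given in the sources, and the log base was inferred from the range (1.29 to 13.09). Array medians lay between 4.10 and 4.3. Groups came from the labels.

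Genes were named from the platform annotation: 23521 probe sets had 1 symbol, 1814 several and 16010 none, and the brightest by 12-array mean stood for a gene. Genes with at least 2 arrays above the 30th percentile (3.45) were tested, 16667 of 22180; all 5 measured GBP genes passed, Gbp2b on 8 arrays, 6 of BALB/c and 2 of B6.

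In R 4.3.3, limma 3.58.1 fitted a mean per group to all 12 arrays (lmFit, then eBayes) for 8 comparisons, and each estimate has its standard error (SE). Benjamini-Hochberg adjustment ran over all 16667 genes and the threshold was an adjusted p of 0.05. The model had 7 residual and 4.50 prior degrees of freedom, and it was tested on simulated data. The number of arrays limits the precision. The shared probe set came from a fit over all probe sets, an alternative added after seeing the data.

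Genes named are the members, up to 4 of each list past the threshold by size, set anchor genes, and the 5 most like Gbp2b or its relatives; predicted genes were left out of the likeness search. The members and lists were chosen with earlier results of these data known. Alternatives covered normalization, filter, probe set choice, model and single arrays. Same-number arrays were checked for pairing: of 21 such pairs 8 had correlated deviations over 0.1, so the numbers were not taken to pair samples.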

Additional observations from a re-analysis of the deposited data

How the results depend on the processing

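Of 880 values of the 5 GBP genes over the alternatives, 823 kept direction and call. Most of these were not called in the main result, so they had no call to lose. The strain values of Gbp2b carry no test and were counted as kept by direction and size alone. Calls were lost 24 times without 1 array and 10 times in other alternatives. Gbp7 kept its call in iNKT17 minus ROR- cells in every alternative. Gbp3 lost the mean-of-strains call in 5 of 22 and the BALB/c call in 13, and Gbp5 the mean call in 13. Some of these fits had fewer arrays or more probe sets tested, and the cause of the losses was not tested. The replicate block (same-number arrays) changed the call or direction of 0 of 40 GBP values and moved the interaction count from 14 to 6 genes; same-number correlations ran from -0.46 to 0.47 and 4 of 12 arrays correlated best with their own number. Other interaction counts were 9 after centring, 9 after quantile normalization and 1 over all probe sets. Array weights gave 549 genes for BALB/c minus B6 in iNKT17 cells (247 in the main result), fitting only the groups compared gave 82 in ROR- cells (203) and 2 in iNKT17 minus gamma-delta 17 cells (28), and all probe sets gave 54 there. Values near 0 reversed: centring gave -0.068 for Gbp3 and -0.076 for Gbp7 in BALB/c minus B6 ROR- cells, and 0.0016 for Gbp5 in iNKT17 minus gamma-delta 17 cells, where quantile normalization gave 0.0088.

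Leaving out 1 array at a time, the genes called ranged from 1341 to 2051 for iNKT17 minus ROR- cells over both strains, 742 to 1150 in BALB/c, 492 to 1058 in B6, 0 to 15 for the interaction, 77 to 530 and 68 to 259 for BALB/c minus B6 in iNKT17 and ROR- cells, 5 to 63 for iNKT17 minus gamma-delta 17 and 530 to 1151 for gamma-delta 17 minus ROR- cells. Gbp4 ranged from -0.058 to 0.14 over both strains, -0.35 to 0.035 in BALB/c and -0.022 to 0.37 for BALB/c minus B6 in ROR- cells. Gbp2b ranged from -0.22 to 0.057 in B6 and -0.073 to 0.20 for iNKT17 minus gamma-delta 17. Gbp3 ranged from -0.81 to 0.041 for the interaction, -0.80 to 0.051 and -0.25 to 0.21 for BALB/c minus B6 in iNKT17 and ROR- cells, and -0.78 to 0.0755 for iNKT17 minus gamma-delta 17. Gbp5 ranged from -0.20 to 0.086 for the interaction and -0.24 to 0.018 for iNKT17 minus gamma-delta 17, and Gbp7 from -0.18 to 0.13 for BALB/c minus B6 in ROR- cells.

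With 2 or 3 arrays a group, and B6 levels of Gbp2b at or below the dim level, small differences were not measurable, and a value that missed the threshold is not shown to be 0.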
